A study of Arabidopsis thaliana with 6 samples.

Results

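The genes described here are 92 protein-coding genes of Arabidopsis thaliana that build or loosen the plant cell wall, taken by symbol from the 27444 protein-coding genes of the nuclear chromosomes. They comprise 23 EXPA and 6 EXPB expansin genes, 30 XTH genes, 7 CESA genes and 26 cellulose synthase-like (CSL) genes. The CSL genes are 7 CSLA, 5 CSLB, 4 CSLC, 6 CSLD, 1 CSLE and 3 CSLG genes. The rule that picks them uses the symbol and the gene type and no peak value, though the families were proposed with earlier results of these data known. Those results already included the peak overlap at CESA9 described below. EXPA19 also bears a family symbol but is listed as a transcribed pseudogene and was not counted.

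The question put to these genes was where the noncoding RNA HID1, which promotes germination under phytochrome B, the main red light receptor, was recovered on their chromatin. Chromatin isolation by RNA purification (ChIRP) captures DNA bound to an RNA with antisense probes, here biotinylated probes against the full length of HID1. All libraries came from seeds of the Col-0 ecotype, 0.3 g per assay, in the phyB-on condition, in which 5 min of red light was followed by 48 h of darkness. The label names seeds, so embryo, endosperm and seed coat were not separated. The 6 libraries form 3 groups of 2, made with biotinylated HID1 probes, with unlabelled probes (mock) or as input. The peak lists used belong to the 2 HID1 probe libraries. Seeds of replicate 1 were cross-linked for 20 min with 1% formaldehyde, which is reversible, and those of replicate 2 for 20 min with 1% glutaraldehyde, which is not. Mock and input data were not analysed here.

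The plant cell wall is a network of cellulose microfibrils tied together by xyloglucan and other glycans in a pectin matrix. CESA proteins make cellulose at the plasma membrane, and different CESA proteins serve growing (primary) and thickened (secondary) walls. CSLA proteins make mannan backbones and CSLC proteins the xyloglucan backbone. XTH enzymes cut and rejoin xyloglucan, and expansins loosen the wall without cutting it. Germination needs both embryo cells that expand and weakening of the endosperm and seed coat around the root tip.

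A gene was counted where a peak overlapped its body or the 1 kb on either side by at least 1 bp. With 1 library per cross-linker there is no replicate check, so the values below carry no test. They are set beside the same count over all protein-coding genes. A peak's score is the caller's own value as the authors deposited it and ranks peaks within its list only. The formaldehyde list held 4557 peaks with a median score of 74.3, and the glutaraldehyde list 6306 with a median of 72.3. The sequencing depth behind the lists is unknown. Positions are given for peaks, on the TAIR10 build, with the first base of a chromosome as 1.

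Formaldehyde peaks lay at 20 of the 92 genes (21.7%), against 16.9% of all protein-coding genes. Glutaraldehyde peaks lay at 24 (26.1%), against a background of 25.9%. A peak of either library lay at 37 genes (40.2%), against 38.0%, and 55 genes had none. As a whole the families therefore lay near the background. The CESA genes stood apart from the other families. All 7 had a peak, 5 with formaldehyde and 6 with glutaraldehyde. The other 85 genes had a formaldehyde peak in 15 cases (17.6%) and a glutaraldehyde peak in 18 (21.2%).

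The set was also counted by stricter rules. In the gene body alone, formaldehyde peaks lay at 15 genes (16.3%, against 11.4% of all protein-coding genes), glutaraldehyde peaks at 16 (17.4%, against 16.7%) and either at 25 (27.2%, against 25.7%). At scores of 100 or more, 5 genes had a formaldehyde peak (5.43%, against 4.31%), 11 a glutaraldehyde peak (12.0%, against 6.60%) and 15 either (16.3%, against 10.5%). These 11 genes, of which CSLG2 and CSLG3 met the same peak, belonged to the EXPA, EXPB, XTH, CESA, CSLD and CSLG families. At EXPA6, EXPB1, XTH18, XTH21 and CSLG2 that peak lay outside the body, and at CSLG3 it had 19 bp in the body. At EXPA5, CESA2, CESA4, CESA9 and CSLD6 it overlapped the body. Grouped by gene length, members under 2 kb had a formaldehyde peak in 14.9% of 47 cases, against 13.9% of all genes that short, and a glutaraldehyde peak in 12.8%, against 21.2%. Members of 2 to 4 kb had them in 27.6% and 31.0% of 29 cases, against 17.7% and 28.5%. Members over 4 kb had them in 31.2% and 56.2% of 16 cases, against 26.4% and 36.1%. All 5 of these long genes with a formaldehyde peak were CESA genes. CESA1, CESA4 and the 9 long members of other families had none.

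**Figure D1:**
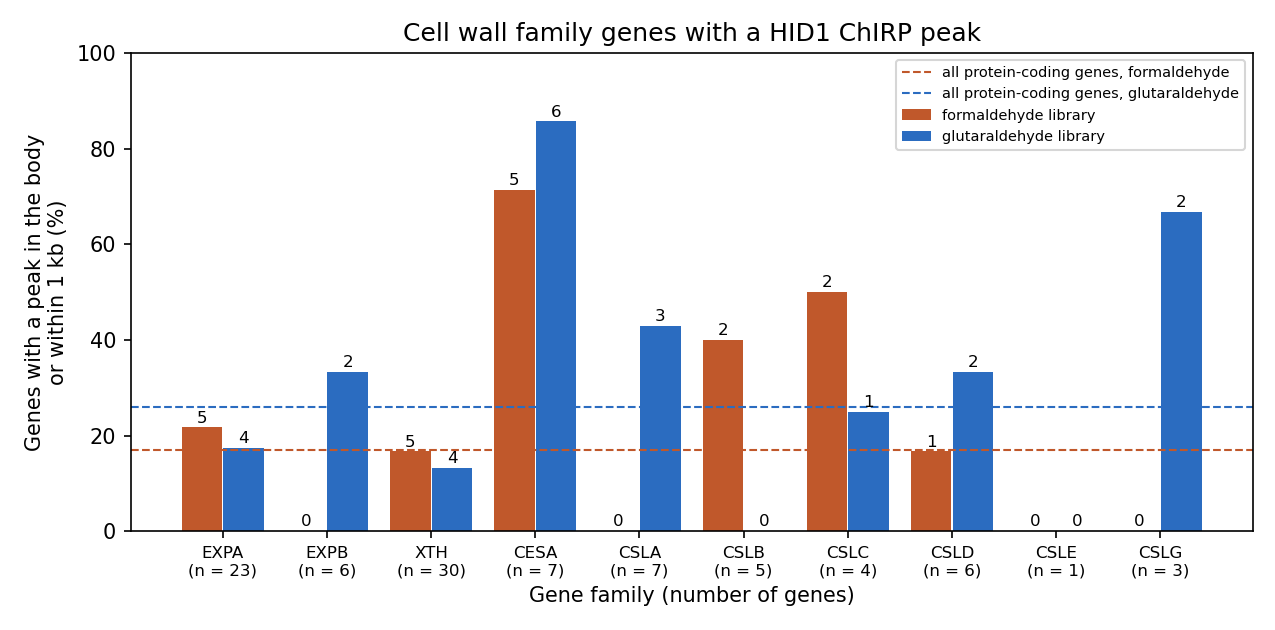
Percent of the genes of each family with a HID1 ChIRP peak in the body or within 1 kb, for the formaldehyde and glutaraldehyde libraries. Numbers above bars are genes with a peak, and dashed lines are the percent of all 27444 protein-coding genes (16.9% and 25.9%). The CESA bars stand highest in both libraries, with 5 and 6 of 7 genes.

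CESA genes are long, and long genes meet more peaks. CESA bodies measured 5334 to 6355 bp against a median of 2078 bp over all protein-coding genes. Among the 618 protein-coding genes in that length range, which include the 7, 24.9% had a formaldehyde peak, 33.5% a glutaraldehyde peak and 49.5% a peak of either. For the 7 CESA genes the same shares were 71.4%, 85.7% and 100%. All 7 also had a peak in the body itself, against 43.0% of genes in the range. This length range was chosen after the counts were known. The share of body sequence inside a peak was measured as well. The part of gene length in the CESA counts was not tested. Peaks covered 17.1% of the 39.5 kb of CESA bodies with formaldehyde and 17.5% with glutaraldehyde. Over all genes of the same length range the shares were 3.90% and 3.29%, and over all protein-coding gene bodies 3.92% and 4.27%.

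**Figure D2:**
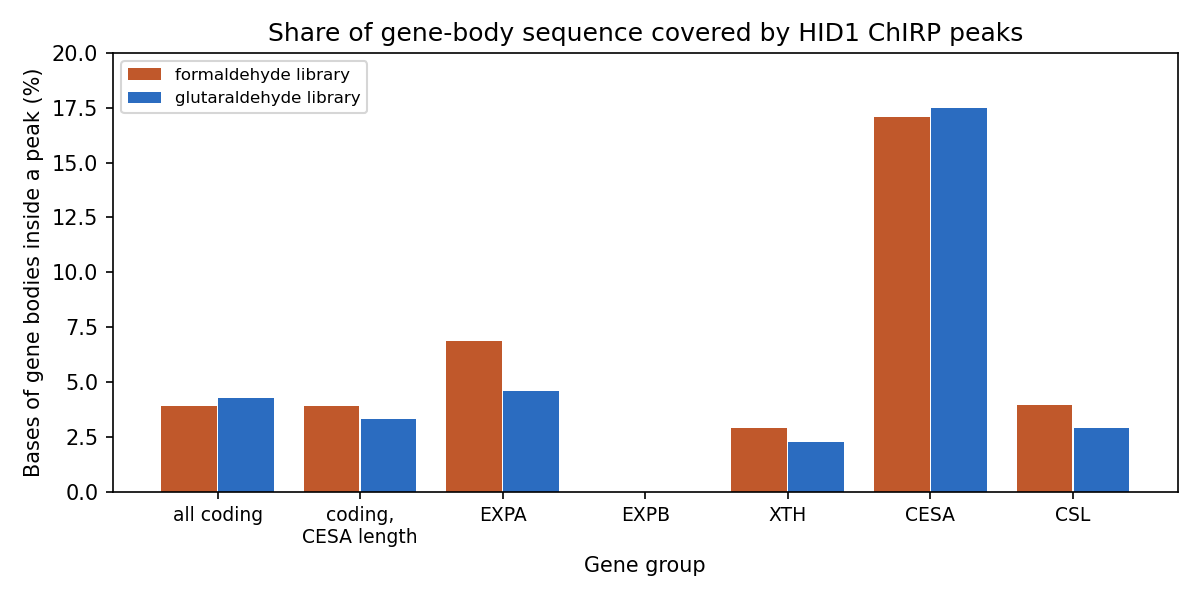
Percent of gene-body bases that lie inside a HID1 ChIRP peak, by gene group and library; the second group holds the 618 protein-coding genes as long as the CESA genes. CESA bodies were covered to 17.1% and 17.5%, and EXPB bodies held no peak in either library.

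Most CESA genes also held more than 1 peak, where overlapping peaks of the libraries were counted separately. Counted over both libraries, 6 of 7 had 2 or more peaks, against 14.4% of genes in the same length range, and 4 of 7 had 3 or more, against 3.40%. The formaldehyde peaks among them scored low, with a median of 59.1 against 74.3 in the list, and the glutaraldehyde peaks near the list, with 70.2 against 72.3. Of the 9 formaldehyde peaks at CESA genes 1 scored 100 or more, and of the 10 glutaraldehyde peaks 3 did. Scores of 100 or more were held by 26.9% of all formaldehyde and 22.8% of all glutaraldehyde peaks. Counting those alone, 3 of 7 CESA genes (CESA2, CESA4 and CESA9) had a peak, against 13.8% of genes in the length range. CESA genes resemble each other in sequence, and reads that map to several places can be assigned to more than one of them. The labels and processing notes do not say how such reads were treated, so the assignment of a peak to 1 CESA gene is uncertain, and the part of such reads in these counts was not tested.

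CESA9 (AT2G21770), a cellulose synthase gene known for its work in the seed coat, had the highest-scoring CESA peaks in both libraries. The formaldehyde peak, chr2:9285608-9287141, scored 252 and ranked 78 of 4557. The stronger glutaraldehyde peak, chr2:9284783-9285895, scored 143 and ranked 515 of 6306. Both lay whole inside the gene body and overlapped over chr2:9285608-9285895, 288 bp, which is 18.8% of the formaldehyde and 25.9% of the glutaraldehyde peak. The midpoints stood 1036 bp apart, so the libraries met at the edges of their peaks. When each overlapping pair was placed by its lower-ranking peak, this one took place 12 of the 488 overlapping pairs of the genome. A second glutaraldehyde peak, chr2:9288514-9289737, with a score of 65.5, covered the higher-coordinate end of the gene and met no formaldehyde peak. In all, peaks covered 28.7% of the CESA9 body with formaldehyde and 43.6% with glutaraldehyde.

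CESA10 (AT2G25540), a close relative of the primary wall gene CESA1, had the most peaks of any of the 92 genes, 4 with formaldehyde and 1 with glutaraldehyde. Genes with 5 or more peaks, a cutoff set by the count of CESA10 itself, made up 0.0328% of all protein-coding genes. They made up 0.324% of those as long as the CESA genes, and CESA10 is counted in both shares. The formaldehyde peaks were weak, with scores of 69.2, 55.5, 53.0 and 56.25 in order of position, and together covered 48.2% of the body. The first also overlapped the neighbouring gene AT2G25530. The fourth, chr2:10871862-10872565, began just past the third, so the 5 peaks do not mark 5 separate places. The third of these, chr2:10871246-10871845, overlapped the glutaraldehyde peak chr2:10871112-10871651, which scored 57.1. They shared 406 bp, 67.7% and 75.2% of the peaks, and their midpoints lay 164 bp apart, the closest match between the libraries at any of the 92 genes. Both peaks stood low in their lists, at ranks 4120 and 5030, and the pair took place 409 of 488.

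CESA2, CESA5 and CESA6 had no peak common to both cross-linkers. At CESA2 a formaldehyde peak, chr4:18297565-18298277 with a score of 86.6, lay 397 bp from the nearer glutaraldehyde peak, chr4:18296441-18297167 with a score of 117. A second glutaraldehyde peak at CESA2, chr4:18301398-18302029, scored 61.7. At CESA5, known for cellulose in seed coat mucilage, the formaldehyde peak chr5:3078248-3078788 scored 58.6 and ran past the end of the body. Its glutaraldehyde peak, chr5:3075847-3076407, scored 51.05 and stood 1840 bp away. CESA6 had formaldehyde peaks alone, chr5:25882056-25883053 and chr5:25883660-25884404, with scores of 60.1 and 59.1. The CESA2 formaldehyde peak and the first CESA6 peak had midpoints 1533 and 1522 bp from the lower-coordinate edge. Without the strands, these distances do not show whether the peaks lay in the same part of each gene.

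CESA1 and CESA4 had glutaraldehyde peaks alone. CESA1, an essential subunit of primary wall cellulose synthesis, had 1 peak, chr4:15645178-15646113, with a score of 81.2. CESA4, a subunit of the secondary wall complex of xylem, had 3. The peak across its higher-coordinate end, chr5:17719068-17719964, scored 115, and that across the lower end, chr5:17714273-17714898, scored 75.0. The third, chr5:17713310-17714021 with a score of 56.4, lay 368 bp outside the body. All 3 also overlapped a neighbouring gene, AT5G44040 at the higher end and AT5G44020 for the other 2. Over all 7 CESA genes, 12 of 19 peaks had their midpoint within 1 kb of a body edge and 13 lay whole inside a body. The same counts over other genes are not given, so these do not show whether CESA peaks favour the ends. The strand is not in the gene table, so the ends cannot be named 5′ or 3′.

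**Figure D3:**
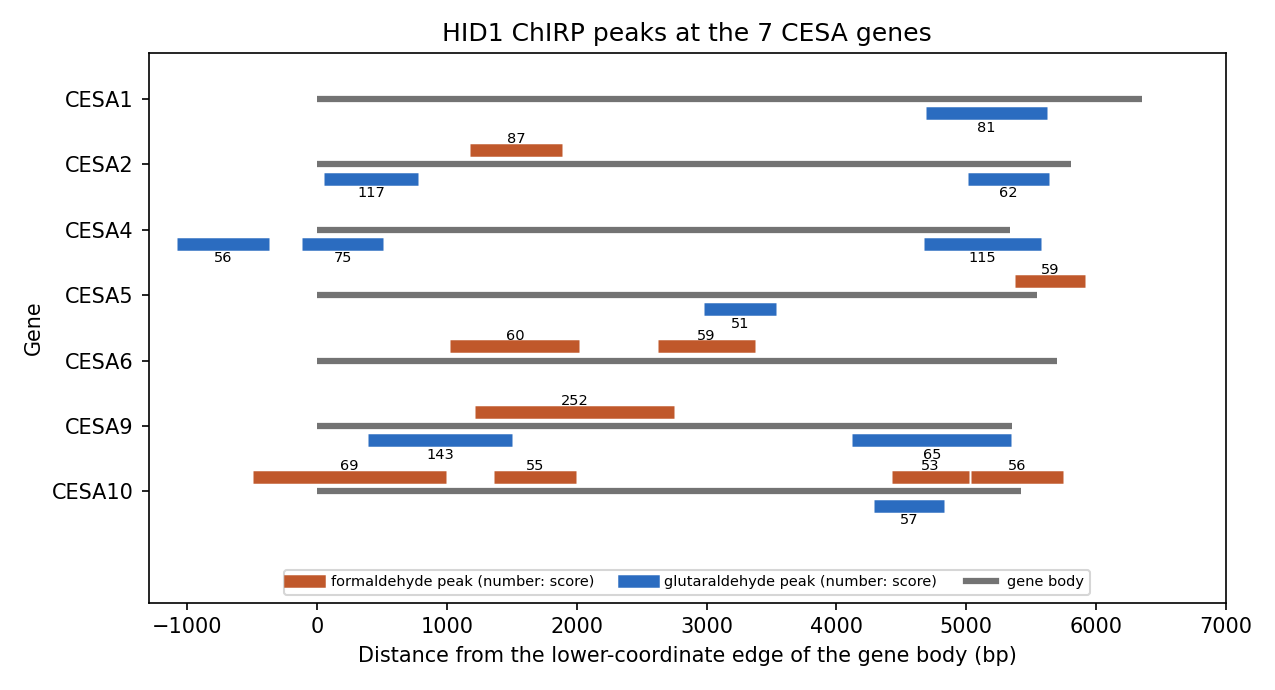
Peaks at the 7 CESA genes by distance from the lower-coordinate edge of the gene body (bp); grey bars are gene bodies, coloured bars peaks of the formaldehyde (above) and glutaraldehyde (below) libraries, with their scores. Peaks of the libraries overlap at CESA9 and CESA10, and lie apart or occur in 1 library at the others.

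The gene table lists 3 further CESA genes under other symbols, and these were examined after the result was known. IRX1 (CESA8) and IRX3 (CESA7), partners of CESA4 in the secondary wall complex, had peaks in both libraries, and the peaks did not overlap. At IRX1 a formaldehyde peak in the body, chr4:10312699-10314677, scored 116, and a glutaraldehyde peak within 1 kb scored 135. At IRX3 a formaldehyde peak with a score of 66.3 and a glutaraldehyde peak, chr5:5735820-5736872 with a score of 119, overlapped the body, and a second formaldehyde peak with a score of 55.7 lay beside it. CEV1 (CESA3), the other essential primary wall subunit, had no peak in either library. With these included, 9 of 10 CESA genes had a peak, and coverage of the bodies was 17.8% with formaldehyde and 13.2% with glutaraldehyde. Of 12 family genes listed under other symbols in all, 4 had a peak, the others being ATCSLA09, a glucomannan synthase gene with a glutaraldehyde peak of 171 within 1 kb, and ATCSLA15, with a formaldehyde peak of 71.0 and a glutaraldehyde peak of 63.1.

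The 26 cellulose synthase-like genes lay closer to the background than the CESA genes did. Formaldehyde peaks lay at 5 (19.2%, against 16.9% of all protein-coding genes) and glutaraldehyde peaks at 8 (30.8%, against 25.9%). A peak of either lay at 11 (42.3%, against 38.0%). Their bodies, with a median length of 3754 bp, were covered to 3.95% and 2.90%, against 3.92% and 4.27% over all protein-coding gene bodies. All 5 formaldehyde peaks at CSL genes overlapped a body, and 6 of 9 glutaraldehyde peaks did.

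CSLD6 was the CSL gene with a peak common to both libraries. CSLD proteins are known for making wall polymers in tip-growing cells and at the cell plate. The formaldehyde peak, chr1:11586623-11587551, lay whole in the body with a score of 84.8 and rank 1753. The glutaraldehyde peak, chr1:11586012-11586730, crossed the lower-coordinate edge of the body with a score of 141 and rank 540. They shared 108 bp, 11.6% and 15.0% of the peaks, a contact of edges as at CESA9. CSLD2, which acts in root hairs, had a glutaraldehyde peak with a score of 51.2. CSLD1, CSLD3, CSLD4 and CSLD5 had none.

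Among the CSLA, CSLB, CSLC, CSLE and CSLG genes, CSLC12 alone had peaks of both libraries. CSLA genes, which make mannans, had no formaldehyde peak, against 16.9% of all protein-coding genes. Glutaraldehyde peaks lay at 3 of 7 CSLA genes (42.9%), against 25.9%. The genes were CSLA01, CSLA03 and CSLA07, with 5 peaks that scored 64.1 to 75.0. Of these peaks 3 missed the CSLA body. The only CSLA01 peak lay 688 bp outside, and the higher-scoring CSLA03 and CSLA07 peaks overlapped the neighbouring genes ARF1 and CTF2A. CSLA02, which makes glucomannan in seed mucilage, had no peak within 1 kb. CSLB01 and CSLB04 had formaldehyde peaks in their bodies with scores of 91.7 and 101, and no CSLB gene had a glutaraldehyde peak. Of the 4 CSLC genes, CSLC04, the main xyloglucan backbone gene, had a formaldehyde peak with a score of 53.8. The peaks at CSLC12, chr4:4801815-4803097 (formaldehyde) with a score of 92.1 and chr4:4804152-4805218 (glutaraldehyde) with a score of 83.8, stood 1054 bp apart. CSLG2 and CSLG3 are neighbours and met the same glutaraldehyde peak, chr4:12460735-12461736, with a score of 184 and rank 176. It lay between the genes, with 19 bp in the CSLG3 body, and is 1 event counted at 2 genes. CSLE1 had no peak.

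Of the 29 expansin genes together, 17.2% had a formaldehyde and 20.7% a glutaraldehyde peak, against 16.9% and 25.9% of all protein-coding genes. No expansin had a peak common to both libraries. Of the 23 EXPA genes, 5 (21.7%) had a formaldehyde and 4 (17.4%) a glutaraldehyde peak. Of the 6 EXPB genes, none had a formaldehyde peak and 2 a glutaraldehyde peak, both outside the body. Most expansin genes are under 2 kb long, the class with a background of 13.9% and 21.2%. EXPA bodies were covered to 6.86% with formaldehyde and 4.58% with glutaraldehyde, against 3.92% and 4.27% over all protein-coding gene bodies.

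EXPA18, a root hair expansin, had the strongest formaldehyde peak of the group, chr1:23332027-23333123 in the body, with a score of 119 and rank 813. EXPA7, the other well-known root hair expansin, had no peak. EXPA5 had a glutaraldehyde peak that lay whole in its body, chr3:11011450-11012704, with a score of 148 and rank 445. EXPA6 was the one expansin with peaks of both libraries, a formaldehyde peak of 53.0 in the body and a glutaraldehyde peak of 161 within 1 kb, chr2:12434581-12435499, 2212 bp from the first. EXPA8 had 2 formaldehyde peaks, 1 across the edge of its body and the neighbouring gene AT2G40600 with a score of 70.1 and 1 beside it with a score of 81.9. EXPA16 had a glutaraldehyde peak of 74.3 in the body. The peaks at EXPA10, EXPA11 and EXPA12 lay outside the bodies and scored 50.1 to 55.4. At EXPB1 the glutaraldehyde peak, chr2:8943064-8943902, scored 148 and lay across the neighbouring gene AT2G20760, and at EXPB3 the peak scored 54.9.

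The expansins named next had no peak in the window and were chosen after their values were seen. EXPA2, which is known to be expressed in the germinating seed, had its nearest formaldehyde peak 1292 bp away, just past the window, and its nearest glutaraldehyde peak 8426 bp away. EXPA1 and EXPA9 had none within 1 kb in either library. The neighbouring genes EXPA21, EXPA22, EXPA23, EXPA24 and EXPA25 on chromosome 5 also had none.

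XTH genes, the largest of the families, lay at or below the shares of all protein-coding genes, 16.9% with formaldehyde and 25.9% with glutaraldehyde. Their median length was 1645 bp, and among all genes under 2 kb the shares were 13.9% and 21.2%. Formaldehyde peaks lay at 5 of 30 XTH genes (16.7%) and glutaraldehyde peaks at 4 (13.3%), at 9 different genes. Peaks covered 2.89% and 2.27% of XTH bodies. The highest score was that of a glutaraldehyde peak beside XTH21, chr2:8147184-8148138, with 195 and rank 139, which was also the highest glutaraldehyde score at any of the 92 genes. It stood 706 bp from the XTH21 body and overlapped the body of AT2G18810. At XTH18 the glutaraldehyde peak, chr4:14824457-14825135, scored 129 and lay 621 bp outside the body. The glutaraldehyde peaks inside bodies scored less, 80.9 at XTH32, a xyloglucan hydrolase gene, and 50.5 at XTH1. The strongest formaldehyde peak of the family, chr5:23304667-23305839 with a score of 104, lay in XTH25, and its neighbour XTH13 was counted for the same peak. XTH7 had a formaldehyde peak of 62.3 in its body. The formaldehyde peaks at XTH29 and XTH3, with scores of 91.5 and 52.9, overlapped neighbouring genes. The window decided some calls, since XTH19 had a formaldehyde peak 1003 bp away and was not counted, while EXPB3 was counted for a glutaraldehyde peak 977 bp away.

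Families differed in where their peaks lay. At the CESA and CSL genes all 14 formaldehyde peaks and 15 of 19 glutaraldehyde peaks overlapped a body. At the shorter EXPA, EXPB and XTH genes 5 of 10 formaldehyde and 4 of 10 glutaraldehyde peaks did. Of the 15 peaks at the 92 genes that missed the member's body, 9 overlapped the body of another gene (3 of 5 formaldehyde and 6 of 10 glutaraldehyde peaks). That left 2 of 24 formaldehyde peaks (8.3%) and 4 of 29 glutaraldehyde peaks (13.8%) in no coding body. Of all peaks in or within 1 kb of a protein-coding gene, 10.7% and 16.8% lay in no coding body. Short genes have flanks that are long beside their bodies, and the part of gene length in this difference was not tested.

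The libraries differed in the rank of their peaks. The 24 formaldehyde peaks at the 92 genes had a median score of 65.8, below the list's 74.3, and 4 (16.7%) scored 100 or more, against 26.9% of the list. The 29 glutaraldehyde peaks had a median score of 75.0, against 72.3, and 10 (34.5%) scored 100 or more, against 22.8%. Of the highest 1000 peaks of each list, 2 formaldehyde peaks, at CESA9 and EXPA18, and 9 glutaraldehyde peaks lay at these genes. That was 8.3% and 31.0% of the peaks here, where the highest 1000 make up 21.9% of the formaldehyde and 15.9% of the glutaraldehyde list. Formaldehyde peaks here had a median width of 781.5 bp and glutaraldehyde peaks of 632 bp, against 849 and 630 bp in the whole lists.

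**Figure D4:**
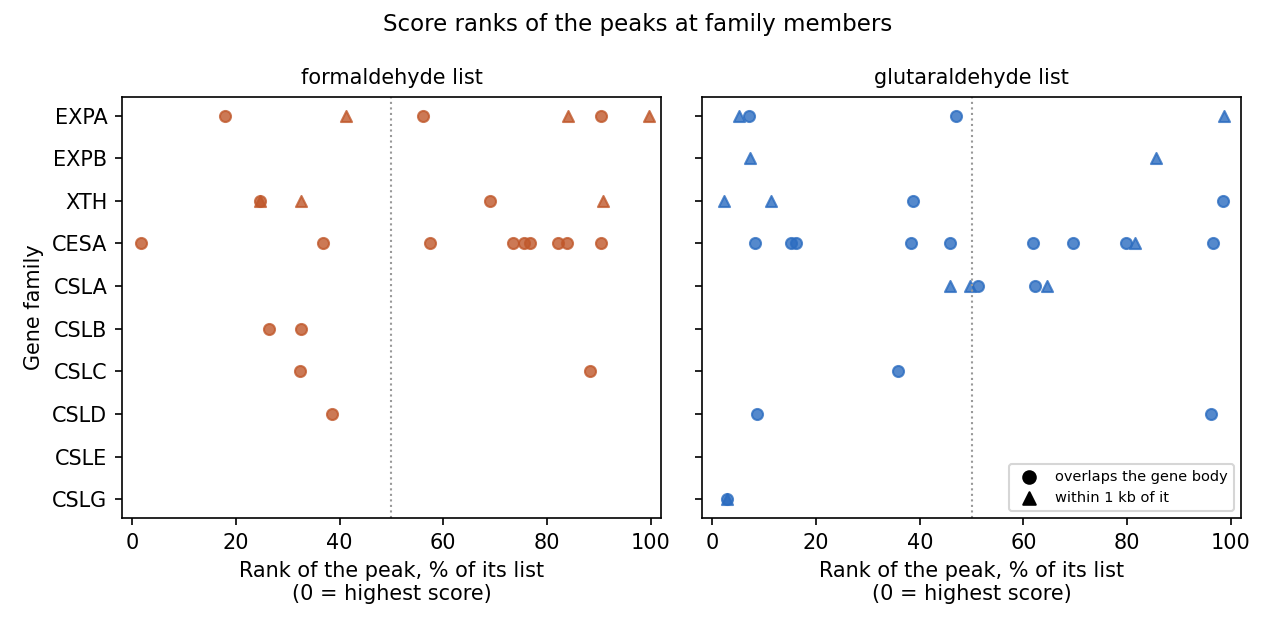
Rank of every peak at a family member as a percent of its list (0 is the highest score), by family; circles overlap the gene body, triangles lie within 1 kb, and the dotted line is the middle of the list. The formaldehyde peak of CESA9 stands at 1.71%, while the other CESA formaldehyde peaks stand between 36.8% and 90.4%.

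A peak common to both libraries lay at 3 of the 92 genes (3.26%), CESA9, CESA10 and CSLD6, against 1.77% of all protein-coding genes. In each the common stretch lay in the gene body, where 1.10% of all protein-coding genes held one. The 2 CESA genes among 7 stood beside 2.91% of genes in their length range, which include them. The CESA9 overlap was already known when the families were chosen, so these counts are not independent of that choice. Another 4 genes, CESA2, CESA5, CSLC12 and EXPA6, had peaks of both libraries that did not overlap. In all, 7 genes (7.61%) had both, against 4.84% of all protein-coding genes. Of these 7 genes, 4 were CESA genes, where 8.90% of genes in their length range had both. The other 85 genes had both in 3 cases (3.53%). The 3 overlaps met different criteria. CESA9 alone kept a common peak at scores of 100 or more, where 0.157% of protein-coding genes did, and CESA10 alone kept one when 50% of each peak had to overlap.

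Other wall genes were examined as 6 short lists, 39 genes in all, to set the families in the pathway. Formaldehyde peaks lay at 8 (20.5%) and glutaraldehyde peaks at 11 (28.2%), near the background, and 0 had a common peak. A peak of either library lay at 18 of the 39, where 38.0% of all protein-coding genes had one. Of 8 partners of cellulose synthase, 3 had a peak. CSI1, which links the complex to microtubules, had one of each library on opposite sides of the gene, with scores of 121 (formaldehyde) and 56.9. KOR1, a membrane glucanase of cellulose synthesis, and CC2, which binds the complex to microtubules, had weak glutaraldehyde peaks, with scores of 50.4 and 71.4. COB, CSI3, CC1, CTL1 and CTL2 had none.

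Of 7 genes that trim or decorate xyloglucan, 6 had a peak, 3 with each library, where 38.0% of all protein-coding genes had a peak of either. This was the highest share among the 6 short lists. The peaks at XXT1, FUT1 and MUR3 lay outside the bodies and scored low, from 52.0 to 56.0. XXT2, a xyloglucan xylosyltransferase, had the highest score of these, a glutaraldehyde peak of 129 in its body. Its partner XXT1 had a glutaraldehyde peak of 52.0, and XLT2, a galactosyltransferase, one of 78.3. FUT1, MUR3 and XYL1 had formaldehyde peaks with scores of 53.1 to 72.9. Of 7 endo-mannanase genes, whose products soften mannan-rich endosperm walls, MAN3 had a formaldehyde peak of 140 and MAN7, known from germination, a glutaraldehyde peak of 67.4. Of 4 expansin-like genes, EXLB1 had a formaldehyde peak of 64.1. Of 8 pectin genes, GAUT1, QUA2 and PME3 had glutaraldehyde peaks of 51.6 to 69.8. Of 5 wall receptor kinases, the neighbours WAK1 and WAK2 had formaldehyde peaks of 241 and 190 in their bodies, and THE1 a glutaraldehyde peak of 60.3.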

How the data were processed

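ChIRP-seq peak lists of 2 libraries were analysed, 1 list per library. Scores are those the authors deposited. The submitters' processing notes name the TAIR10 build, the aligner Bowtie2 2.1.0 and the peak caller MACS 1.4.2, whose score is minus the log10 of its p-value, multiplied by 10. Both lists begin at a score of about 50. Not given in the sources used here are the control for calling, the handling of multiply mapped reads and the depth.

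Gene symbols and positions came from the RefSeq table of TAIR10.1, which has no strand or exons, and no sequence was used. Its nuclear positions were taken to be those of TAIR10. Set against gene edges, formaldehyde midpoints were rarest 0 to 400 bp outside on each of the 5 chromosomes. Glutaraldehyde midpoints showed no such common place, with their lowest bins 0 to 800 bp outside, so these values cannot decide whether the positions match. Overlaps were counted in Python 3.11.15 with pandas 2.3.3, and the counting was tested on simulated peaks. Genes were tallied where a peak met the body or 1 kb on either side. The genes named are all members with a peak, with other wall genes from fixed lists, whose 39 loci were all found (35 by symbol). Further genes without a peak, and the CESA genes under other symbols, were named after their values were seen. The families and lists were chosen with earlier results of these data known. No test was made, since each cross-linker has 1 library. Whether the libraries came from separate seed batches is not stated in the labels.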

Additional observations from a re-analysis of the deposited data

How the results depend on the processing

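Counts of genes with a peak depended more on the score than on the window. With scores of 100 or more, 5 genes had a formaldehyde, 11 a glutaraldehyde, 15 either and 1 a common peak, and 3 of 7 CESA genes had a peak. With the 1000 highest scoring peaks of each list these counts were 2, 10, 11 and 1, and 2 of 7. The number with a common peak was 1 with 50% reciprocal overlap, 1 with midpoints within 200 bp, and 7 where a peak of each library sufficed. Leaving out a library gave 20 to 24 genes with a peak in place of 37 by construction, and 5 to 6 CESA genes in place of 7. With body alone, flanks of 500 bp or 2 kb, midpoints, or the family list narrowed or widened, counts stayed within 1.5 times (15 to 23 for formaldehyde, 16 to 32 for glutaraldehyde, 25 to 44 for either and 2 to 3 for common peaks). All 7 CESA genes kept a peak with the body alone. The wider list with other symbols was chosen after seeing the data. No paired analysis was possible because each cross-linker has 1 library and no result comes from a test. Unknown depth and the unanalysed mock and input libraries limit all counts.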
